A study of Mus musculus with 18 samples.

Results

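Liver RNA from 18 male C57BL/6J mice was examined for 4 genes with little written about them in liver: Clec2h, Gm10804, Srrm4os and Pla1a. They are 4 of the 55487 genes in the table of read counts, found there by their symbols. They were picked because earlier results of these same data showed them lower on the FPC diet, so their levels in FPC-GFP and CON-GFP livers are given as a description, with no test.

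There were 3 groups of 6 mice, with 1 library per mouse. CON-GFP mice ate a purified control diet, and both FPC groups ate a diet rich in fat with fructose, palmitate and cholesterol and drank water with fructose and glucose, for 16 weeks. Every mouse had been injected 1 week before the diet with an adeno-associated virus, which carried green fluorescent protein in both GFP groups, and human LIPA, the gene of lysosomal acid lipase, in the FPC-LIPA group. The vectors used the TBG promoter, which restricts the transgene to hepatocytes, the livers were taken after a fast, and no livers with LIPA on the control diet were analysed here. Total counts per library ran from 16632146 to 37739301. Mouse Lipa, a check of the vector only in part because the transgene is human, averaged 243 ± 33.9 CPM (counts scaled to a common library size) in CON-GFP, 336 ± 59.3 in FPC-GFP and 300 ± 44.8 in FPC-LIPA (SD, n = 6). All 10 hepatocyte markers were counted in every library. Reads on ribosomal protein genes made up 1.39 to 2.47% of the CON-GFP and FPC-GFP libraries and 2.10 to 8.02% of the FPC-LIPA libraries, where FPC-LIPA 36, 37 and 39 (6.33, 7.97 and 8.02%) stood apart from FPC-LIPA 31, 33 and 34 (2.86, 2.37 and 2.10%). Fold changes and calls of FPC-LIPA are therefore given with and without those 3 libraries, a choice made after seeing the data.

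Clec2h encodes a C-type lectin-like surface protein of the Clec2 family, whose members serve as ligands of the Klrb1 (NKR-P1) receptors of natural killer (NK) cells. Pla1a encodes a secreted phospholipase A1 that cuts phosphatidylserine and releases lysophosphatidylserine, a lipid signal, and it belongs to the same protein family as pancreatic, hepatic and lipoprotein lipase. Srrm4os and Gm10804 make RNAs with no known protein. Srrm4os runs antisense to Srrm4, which encodes a splicing factor best known for neuronal microexons, and Gm10804 has no described function.

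In GENCODE M21 on GRCm38, Clec2h (ENSMUSG00000030364) is a protein-coding gene on the plus strand of chromosome 6, from 128662385 to 128677374, with 2709 exonic bases. Gm10804 (ENSMUSG00000075025) is a long intergenic noncoding RNA gene on the plus strand of chromosome 2, from 93452819 to 93469871, with 3263 exonic bases. Its start lies inside the body of Cd82, a tetraspanin gene on the minus strand, but the pair share 0 exonic bases. Srrm4os (ENSMUSG00000086219) is on the plus strand of chromosome 5, from 116438720 to 116465487, with 3655 exonic bases, of which 68, from 116439369 to 116439436, are also exonic in Srrm4 on the minus strand. Pla1a (ENSMUSG00000002847) is a protein-coding gene on the minus strand of chromosome 16, from 38396117 to 38433145, with 2009 exonic bases. The sources name a stranded and an unstranded library kit without saying which served which library. Reads in the exonic bases that Srrm4os and Srrm4 share therefore cannot be told apart. The bodies of Srrm4os and Srrm4 overlap over 26213 bases and those of Gm10804 and Cd82 over 10322 bases. Reads from introns of the opposite gene may thus be counted too, and how far this alters the counts was not tested.

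RefSeq promoter sequences (GRCm38.p6) were at hand for Clec2h and Gm10804, the 2 genes with the largest falls, and the 250 bases before each start are shown because they hold the promoter. The Clec2h stretch is chr6:128662135-128662384 and the Gm10804 stretch is chr2:93452569-93452818, both on the plus strand, and capitals mark every match to the motifs searched.
Clec2h: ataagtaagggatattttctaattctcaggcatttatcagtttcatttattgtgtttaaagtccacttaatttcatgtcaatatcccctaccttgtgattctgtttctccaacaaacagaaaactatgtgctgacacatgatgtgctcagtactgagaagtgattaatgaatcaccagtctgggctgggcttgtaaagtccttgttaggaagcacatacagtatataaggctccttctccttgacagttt
Gm10804: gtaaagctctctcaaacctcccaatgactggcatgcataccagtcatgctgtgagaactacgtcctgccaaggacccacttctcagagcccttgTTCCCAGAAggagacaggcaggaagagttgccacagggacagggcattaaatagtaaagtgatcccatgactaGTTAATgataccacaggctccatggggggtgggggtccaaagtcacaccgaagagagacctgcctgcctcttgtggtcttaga
The 5 motifs, read on both strands, were TATAAA for the TATA box, TTCNNNGAA for STAT factors, AGGTCA for nuclear receptors, GTTAAT for the core of HNF1 sites and TTGCNNAA for C/EBP factors, and no matches overlapped. Gm10804 held a match to the STAT motif that starts 156 bases before the gene and a match to the HNF1 core that starts 83 bases before it. Among 32851 promoters of the same length, 7.02% held the STAT motif and 6.43% the HNF1 core. Clec2h held no exact match to any of the 5 motifs, which were present in 6.43 to 14.0% of all promoters. Only the letters given were searched, so near forms were not counted, such as tataag close to the end of the Clec2h stretch. G and C made up 37.2% of the Clec2h stretch and 52.0% of the Gm10804 stretch, against a median of 52.4% over all promoters. These matches describe letters and not bound sites.

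In CON-GFP livers the 4 genes differed widely in level. Per kilobase of exon, Pla1a stood at 19.8 RPKM (CPM divided by exon length in kilobases), above 86.6% of the 14292 genes compared. These were the genes with an exon length that passed a filter on low counts in FPC-GFP against CON-GFP. Clec2h at 2.10 RPKM and Gm10804 at 1.84 RPKM lay a little under the median of 2.57 RPKM, and Srrm4os at 0.637 RPKM was above only 22.4% of genes. In FPC-GFP livers Clec2h, Gm10804 and Srrm4os sat at 0.0915, 0.0632 and 0.0650 RPKM, above 1.96, 0.903 and 0.959% of these genes, while Pla1a at 7.55 RPKM was still above 72.8%. The lowest places follow from the choice of genes and from that filter, which Clec2h, Gm10804 and Srrm4os passed only through the CON-GFP livers. They are not ranks among all genes in the table.

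All 4 genes were lower in each FPC-GFP liver than in any CON-GFP liver. In that comparison 349 of 14307 genes tested (2.44%) were called lower, and 631 (4.41%) had FPC-GFP values wholly below the CON-GFP values, but the genes were picked from this contrast and their own counts say nothing more. A gene was called at an absolute fold change of at least 2 with an adjusted p under 0.05. Clec2h, Gm10804 and Srrm4os passed the filter on low counts, which asks for 6 libraries at 0.347 CPM or more, only through the CON-GFP livers. In bulk liver RNA, fewer cells of a kind and less RNA per cell cannot be told apart.

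**Figure D1:**
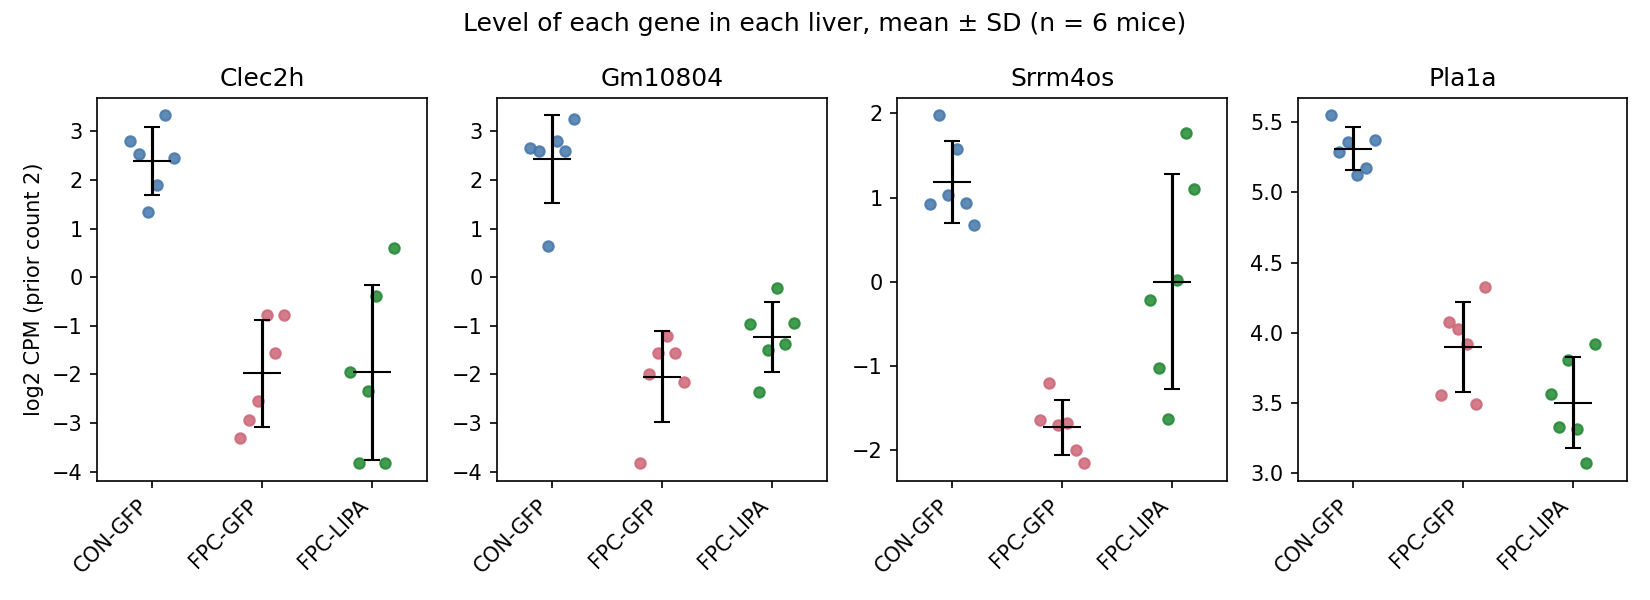
Level of each gene in each liver, in log2 CPM with a prior count of 2 (vertical axes differ between panels), by group (horizontal axis). Points are single livers, and black bars are the mean ± SD of 6 mice. All 4 genes are lower in every FPC-GFP liver than in any CON-GFP liver, and Srrm4os spreads over the range of both GFP groups in FPC-LIPA.

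Clec2h, the lectin gene, had 66 to 357 reads in CON-GFP livers, with levels of 2.46 CPM at the lowest, 5.56 at the median and 9.996 at the highest. In FPC-GFP livers it had 1, 2, 3, 17, 9 and 10 reads in mice 11, 12, 13, 16, 19 and 20, a lowest level of 0.0312, a median of 0.186 and a highest of 0.513 CPM. The groups did not overlap, and 3 of the 6 FPC-GFP libraries were at 3 reads or fewer, taken as the floor. The mean fell from 5.69 ± 2.63 CPM to 0.248 ± 0.221 CPM (SD, n = 6), which is 4.36% of the control mean, with a fitted log2 fold change of -4.58 (SE 0.50).

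Gm10804, the noncoding RNA that starts inside Cd82, had levels of 1.49 CPM at the lowest, 6.09 at the median and 9.45 at the highest in CON-GFP livers. In FPC-GFP livers its lowest, median and highest levels were 0, 0.226 and 0.361 CPM, from at most 12 reads. The lowest CON-GFP liver was mouse 3, with 40 reads, and it was still above all FPC-GFP livers. The mean fell from 6.00 ± 2.57 CPM to 0.206 ± 0.125 CPM (SD, n = 6), 3.44% of the control mean, with a log2 fold change of -4.82 (SE 0.49).

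Srrm4os, the antisense RNA, had levels of 1.53 CPM at the lowest, 1.91 at the median and 3.87 at the highest in CON-GFP livers, from 45 to 74 reads. In FPC-GFP livers the lowest, median and highest levels were 0.154, 0.239 and 0.364 CPM, from 3 to 12 reads. These were tightly grouped low values. The mean fell from 2.33 ± 0.889 CPM to 0.238 ± 0.0728 CPM (SD, n = 6), 10.2% of the control mean, with a log2 fold change of -3.24 (SE 0.31).

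Pla1a, the phospholipase gene, was lowered but not lost. Its levels in CON-GFP livers were 34.8 CPM at the lowest, 40.0 at the median and 46.7 at the highest, and in FPC-GFP livers 11.2, 15.7 and 20.0 CPM, with 372 to 553 reads left. The mean fell from 39.8 ± 4.27 CPM to 15.2 ± 3.31 CPM (SD, n = 6), 38.1% of the control mean, with a log2 fold change of -1.40 (SE 0.14). It was the most even of the 4 genes among control livers, with an SD that was 10.7% of the mean, against 38.2% for Srrm4os, 42.8% for Gm10804 and 46.3% for Clec2h.

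The FPC-LIPA livers address whether raised lysosomal acid lipase in hepatocytes altered these genes on the FPC diet. Srrm4os was higher with LIPA than with GFP, Pla1a did not pass the test, and Clec2h and Gm10804, at 0 to 32 reads in a library, failed the filter on low counts. Of the 2 genes that passed the filter on low counts, 1 was called higher, where 1508 of 14620 genes (10.3%) were called higher in all. Srrm4os passed that filter mainly through the group where it was higher, with 5 FPC-LIPA libraries and 1 FPC-GFP library over its minimum, so the 1 of 2 says nothing by itself. This contrast did not choose the genes, but it uses the same FPC-GFP libraries that did. Picking genes for low values in those libraries favours a rise against them, so the p-values of this contrast are not free of the choice. None of the 4 genes had FPC-LIPA values wholly above or wholly below the FPC-GFP values, which 557 genes (3.81%) and 551 genes (3.77%) had.

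**Figure D2:**
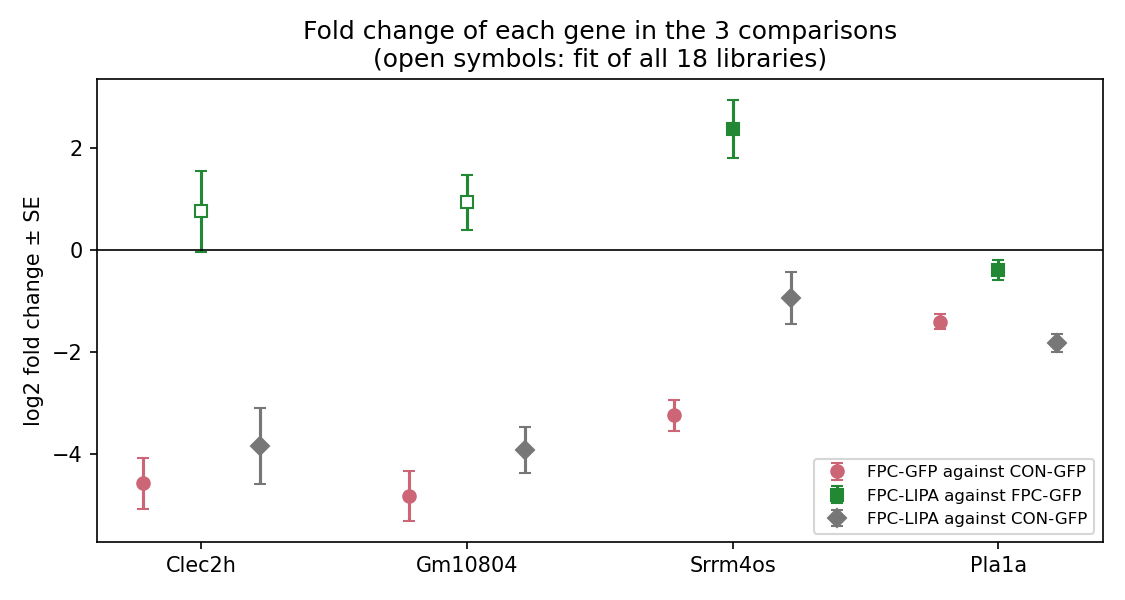
Log2 fold change (vertical axis) of each gene (horizontal axis) in the 3 comparisons, with bars of 1 SE from edgeR. Filled symbols come from the 12 libraries of a comparison, and open symbols from the fit of all 18 libraries. FPC-LIPA against FPC-GFP is well above 0 for Srrm4os (2.36) and just below 0 for Pla1a (-0.39).

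Srrm4os in FPC-LIPA livers had 25, 17, 8, 31, 42 and 46 reads in mice 31, 33, 34, 36, 37 and 39, which are 0.787, 0.419, 0.252, 0.943, 3.33 and 2.08 CPM. Mice 37 and 39 were within the CON-GFP range, mouse 34 was within the FPC-GFP range, and 5 of the 6 were above every FPC-GFP liver. The mean was 1.30 ± 1.18 CPM (SD, n = 6) against 0.238 ± 0.0728 CPM in FPC-GFP, a ratio of means of 5.48. The log2 fold change was 2.36 (SE 0.57), with an adjusted p of 0.0183 in edgeR's quasi-likelihood test over all genes. An exact two-sided permutation test of log2 CPM over the 12 libraries gave p = 0.00433, where the smallest possible is 0.00216. Both p-values carry the lean toward a rise that came with the choice of genes.

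Within FPC-LIPA, the 3 livers with most Srrm4os were also the 3 with most reads on ribosomal protein genes, while CON-GFP 2 held 3.87 CPM at 2.31%. The libraries of mice 34, 33 and 31, at 2.10, 2.37 and 2.86% ribosomal protein reads, held 0.252, 0.419 and 0.787 CPM of Srrm4os, and those of mice 36, 37 and 39, at 6.33, 7.97 and 8.02%, held 0.943, 3.33 and 2.08 CPM. Without those last 3 libraries the log2 fold change was 1.01 (SE 0.46) with an adjusted p of 0.261, so the direction held and the call was lost, while the genes called overall dropped from 1671 to 116. Among libraries numbered 55 to 68 on the sample sheet, which leaves out mice 1 and 2 (CON-GFP), 20 (FPC-GFP) and 37 (FPC-LIPA), it was 1.77 (SE 0.54) with an adjusted p of 0.080. The part of library makeup in the Srrm4os result was not tested.

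**Figure D3:**
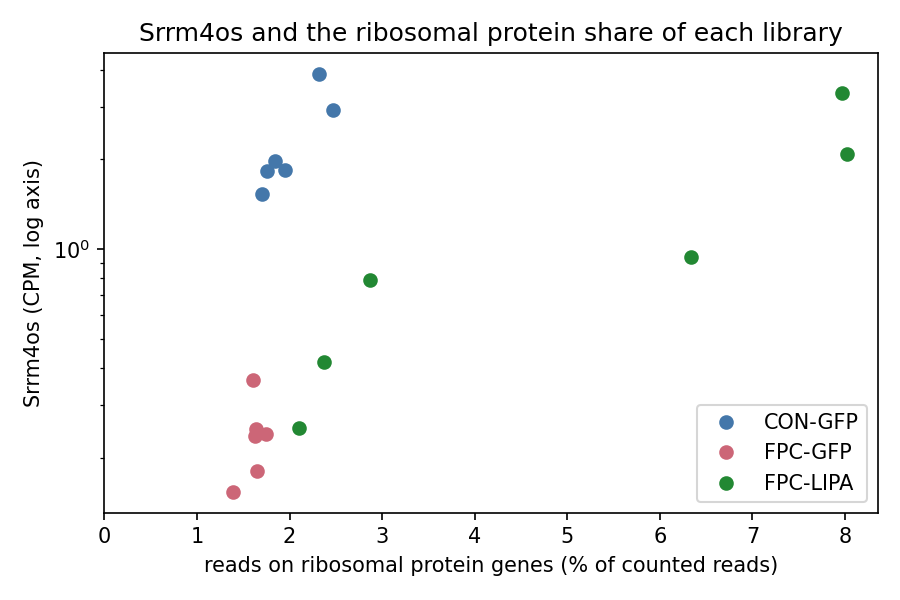
Srrm4os level in CPM (vertical log axis) against the percentage of counted reads on ribosomal protein genes (horizontal axis), 1 point per liver, coloured by group. FPC-GFP points are at or under 0.364 CPM and 1.75%, and the FPC-LIPA points run from 0.252 CPM at 2.10% to 2.08 CPM at 8.02% and 3.33 CPM at 7.97%.

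Srrm4, the splicing factor gene on the opposite strand, was lower on the FPC diet but did not differ detectably with LIPA. It averaged 10.05 ± 4.06 CPM in CON-GFP, 3.47 ± 2.07 CPM in FPC-GFP and 3.31 ± 2.22 CPM in FPC-LIPA (SD, n = 6). Its log2 fold change was -1.53 (SE 0.37, adjusted p = 0.00866) for FPC-GFP against CON-GFP and -0.06 (SE 0.55, adjusted p = 0.946) for FPC-LIPA against FPC-GFP, where without mice 36, 37 and 39 it was 0.49 (SE 0.44, adjusted p = 0.579). Within FPC-LIPA, the livers with most Srrm4os had the least Srrm4. These were mice 36, 37 and 39, the libraries with most ribosomal protein reads, at 0.213, 2.14 and 2.93 CPM of Srrm4. Mice 31, 33 and 34 held 3.81, 6.91 and 3.88 CPM. The FPC-LIPA liver with the least Srrm4, mouse 36 at 0.213 CPM, held 0.943 CPM of Srrm4os, and the one with the most Srrm4, mouse 33 at 6.91 CPM, held 0.419 CPM. The log2 level of Srrm4os minus that of Srrm4 was -3.32 ± 0.958 in FPC-GFP and -1.27 ± 2.31 in FPC-LIPA (SD, n = 6). This difference of 2.05 did not pass an exact permutation test chosen after seeing the data (p = 0.0779, two-sided). The low FPC-GFP values that chose Srrm4os enter it, so this p carries the same lean toward a rise. The difference was not computed without mice 36, 37 and 39.

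**Figure D4:**
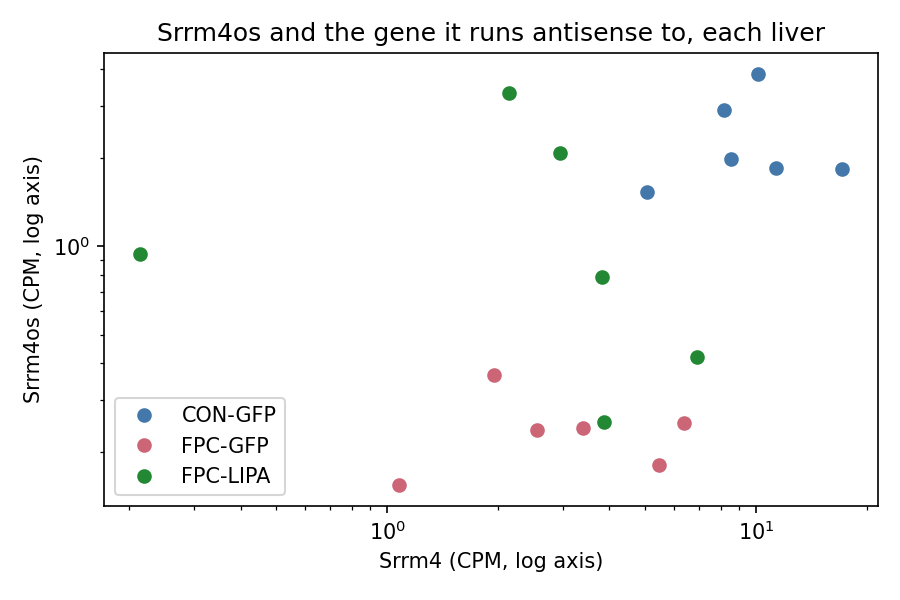
Srrm4os (vertical log axis) against Srrm4 (horizontal log axis), both in CPM, 1 point per liver, coloured by group. CON-GFP points lie at the upper right, FPC-GFP points lie low at 1.08 to 6.39 CPM of Srrm4, and FPC-LIPA points spread from 0.252 to 3.33 CPM of Srrm4os.

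Clec2h in FPC-LIPA livers had 6, 0, 4, 23, 0 and 32 reads in mice 31, 33, 34, 36, 37 and 39, with a lowest level of 0, a median of 0.158 and a highest of 1.44 CPM. Mice 36 and 39 were above every FPC-GFP liver and mice 33 and 37 below every one. The mean was 0.410 ± 0.569 CPM (SD, n = 6), 7.20% of the control mean. It failed the filter in this comparison, and the fit of all 18 libraries gave a log2 fold change of 0.75 (SE 0.79) against FPC-GFP, with an adjusted p of 0.474. The sign rested on mouse 39, since the value without it was -0.13, and without mice 36, 37 and 39 it was -1.24 (SE 0.87, adjusted p = 0.475).

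Gm10804 in FPC-LIPA livers had 14, 5, 9, 26, 4 and 10 reads in the same order of mice, with a lowest level of 0.123, a median of 0.379 and a highest of 0.791 CPM. Of these livers 3 were above every FPC-GFP liver, and none came near the lowest CON-GFP liver. The mean was 0.401 ± 0.225 CPM (SD, n = 6), 6.69% of the control mean. The fit of all 18 libraries gave a log2 fold change of 0.93 (SE 0.54) against FPC-GFP, with an adjusted p of 0.188, and 0.38 (SE 0.66, adjusted p = 0.800) without mice 36, 37 and 39. Cd82, whose body holds the start of Gm10804, averaged 68.5 ± 12.9 CPM in CON-GFP, 63.2 ± 6.78 in FPC-GFP and 43.3 ± 15.7 in FPC-LIPA (SD, n = 6) and was called in no comparison, with a log2 fold change on the diet of -0.13 (SE 0.13, adjusted p = 0.499). Against FPC-GFP its FPC-LIPA value was -0.54 (SE 0.23, adjusted p = 0.0881), and -0.14 (SE 0.13, adjusted p = 0.610) without mice 36, 37 and 39.

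Pla1a in FPC-LIPA livers had levels of 8.33 CPM at the lowest, 10.9 at the median and 15.1 at the highest. Of the 6 livers 3 were below every FPC-GFP liver and none was above the FPC-GFP range. The mean of 11.5 ± 2.60 CPM (SD, n = 6) stood against 15.2 ± 3.31 CPM in FPC-GFP. The log2 fold change was -0.39 (SE 0.20), and its adjusted p was 0.146. A fall of this size did not pass the test, and a further fall with LIPA was not detectable at this spread between mice. Without mice 36, 37 and 39 the log2 fold change was -0.34 (SE 0.20, adjusted p = 0.388).

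Set beside the control livers, which were also used in choosing the genes, FPC-LIPA livers gave log2 fold changes of -3.84 (SE 0.74) for Clec2h, -3.92 (SE 0.45) for Gm10804, -1.82 (SE 0.18) for Pla1a and -0.94 (SE 0.51) for Srrm4os. The first 3 genes had no FPC-LIPA liver at or above the lowest CON-GFP liver, as had 698 of 14433 genes (4.84%), and the Srrm4os groups overlapped. Mean Srrm4os in FPC-LIPA was 55.9% of the control mean, and without mice 36, 37 and 39 its log2 fold change was -2.24 (SE 0.43), while Clec2h was at -5.80 (SE 0.68), Gm10804 at -4.42 (SE 0.59) and Pla1a at -1.74 (SE 0.16). Diet and vector differ together here. The order of the group means of CPM was CON-GFP, FPC-LIPA, FPC-GFP for Clec2h, Gm10804 and Srrm4os. The lower pair passed the test for Srrm4os alone, with the exceptions given above. For Clec2h the mean log2 CPM was -1.95 in FPC-LIPA and -1.98 in FPC-GFP, and the medians of CPM had the reverse order. For Pla1a the order was CON-GFP, FPC-GFP, FPC-LIPA, and the lower pair did not pass the test.

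Of the genes beside the 4 members that could be tested, Srrm4 alone was called lower on the diet. The genes examined were 30, taken as the 3 nearest on each side, the nearest protein-coding gene on each side and any overlapping gene. Of these 10 passed the filter and 3 were called in FPC-GFP against CON-GFP, where 1030 of 14307 genes were called in all. The 3 were Srrm4, which was lower, and Gstm2-ps1 and Cd80, which were higher. Cd80, a costimulatory ligand of T cells that lies 22416 bases from Pla1a, rose by 1.37 on the log2 scale (SE 0.34, adjusted p = 0.0107). Gstm2-ps1, a pseudogene 167421 bases from Srrm4os whose reads may be shared with glutathione S-transferase genes, rose by 1.97 on the log2 scale (SE 0.26, adjusted p = 0.000235). The nearest protein-coding genes that could be tested were Hspb8 (-0.47, SE 0.15) and Suds3 (-0.05, SE 0.09) by Srrm4os, Adprh (0.24, SE 0.20) by Pla1a and Tspan18 (0.63, SE 0.29) by Gm10804, none of them called, although Hspb8 had an adjusted p of 0.0346. Popdc2 by Pla1a, Alx4 by Gm10804 and Klrb1a and Klrb1 by Clec2h had too few reads, at most 10 in a library. In FPC-LIPA against FPC-GFP 0 of the 10 were called by edgeR or DESeq2, with 3 at an unadjusted p under 0.05, and against CON-GFP Tspan18 was also called higher (log2 fold change 1.15, SE 0.35, adjusted p = 0.0291). Without mice 36, 37 and 39, again 0 of the 10 were called by edgeR against FPC-GFP, with 2 at an unadjusted p under 0.05. Against CON-GFP, Tspan18 was then called higher (1.39, SE 0.38, adjusted p = 0.0250), and Gstm2-ps1 and Cd80 stayed called. Srrm4, called lower against CON-GFP with all libraries (-1.61, SE 0.51, adjusted p = 0.0336), lost its call (-1.04, SE 0.34, adjusted p = 0.0507).

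**Figure D5:**
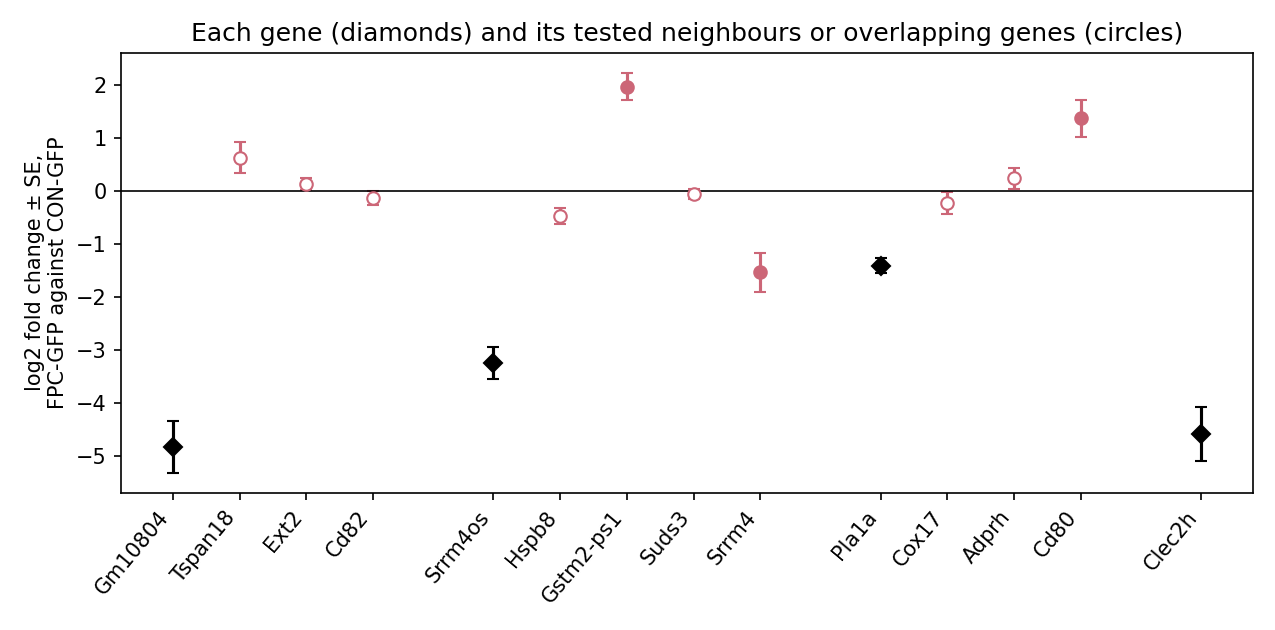
Log2 fold change of FPC-GFP against CON-GFP with bars of 1 SE (vertical axis) for each of the 4 genes (black diamonds) and the tested genes beside or across it (circles, filled where called). Circles other than Srrm4 lie at or above -0.47, far from the diamonds of Gm10804 (-4.82) and Srrm4os (-3.24), and Clec2h has no tested neighbour.

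Clec2h lies among genes of the Klrb1 family, between Klrb1a and Klrb1. Clec2j, a pseudogene of the Clec2 family 565 bases away from Clec2h, had 0 reads in all 18 libraries. Of 12 other Clec2 and Klrb1 genes only Clec2d, a widely expressed family member, passed the filter on the diet, where its log2 change was -0.42 (SE 0.19, adjusted p = 0.121), and it averaged 168 CPM over 18 livers. Clec2d and Clec2i were tested in FPC-LIPA against FPC-GFP and gave 0.82 (SE 0.36, adjusted p = 0.102) and 1.39 (SE 0.51, adjusted p = 0.0603), and Clec2i was called higher against CON-GFP, at 1.36 (SE 0.47, adjusted p = 0.0470). Without mice 36, 37 and 39 Clec2d turned to -0.15 (SE 0.27, adjusted p = 0.805) against FPC-GFP, Clec2i was at 1.24 (SE 0.53, adjusted p = 0.242), and the Clec2i call against CON-GFP was lost (adjusted p = 0.0907). None of the Klrb1 receptor genes passed 1.13 CPM in any library. The summed level of 10 NK cell markers ran from 1.92 to 4.73 CPM in CON-GFP livers, from 1.93 to 4.80 CPM in FPC-GFP livers and from 4.91 to 15.8 CPM in FPC-LIPA livers, with Eomes at 0 in 10 of 18 libraries. In FPC-LIPA against FPC-GFP 4 of the 10 could be tested and 2, Klrk1 and Gzma, were called higher. Without mice 36, 37 and 39 they were at 1.18 (SE 0.31, adjusted p = 0.0867) and 1.60 (SE 0.47, adjusted p = 0.107), and the part of these cells in the Clec2h counts was not tested.

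Among 8 lipase relatives of Pla1a 3 passed the filter, and 1 of them was called. Lpl, the lipoprotein lipase, was called higher in FPC-GFP against CON-GFP (log2 fold change 2.11, SE 0.28, adjusted p = 0.000298) and higher again in FPC-LIPA against FPC-GFP (1.79, SE 0.37, adjusted p = 0.0136), where without mice 36, 37 and 39 it was 1.23 (SE 0.33, adjusted p = 0.0883). Lipc, the hepatic lipase, had a log2 fold change of -0.42 (SE 0.13) on the diet and Lipg, the endothelial lipase, -0.07 (SE 0.25), neither past the fold threshold. Pnlip, the pancreatic lipase, was at 0 in 16 of 18 libraries. Of 8 genes that make, cut or sense phosphatidylserine or lysophosphatidylserine, 5 were tested on the diet and 0 called by edgeR or DESeq2, with 1 at an unadjusted p under 0.05. Among them were Ptdss1, a phosphatidylserine synthase (-0.20, SE 0.11), and Abhd16a, a phosphatidylserine lipase (-0.06, SE 0.11). That 1 was Pisd, the phosphatidylserine decarboxylase, with an adjusted p of 0.00855 and a log2 change of 0.46 (SE 0.11), under the fold threshold. Of 4 SRRM genes, Srrm2 (-0.08, SE 0.14) and Srrm1 (-0.04, SE 0.11) did not pass the test on the diet, Srrm4 did, and Srrm3 had reads in 1 library.

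Of the lists of cell type markers and sex-biased genes, the macrophage list was called whole on the diet and the others in part or not at all. Over all genes, 681 of 14307 were called higher and 349 lower in FPC-GFP against CON-GFP. In FPC-LIPA against FPC-GFP 1508 of 14620 were called higher and 163 lower. Without mice 36, 37 and 39 that comparison had 111 of 15246 called higher and 5 lower. Of the 10 hepatocyte markers 3, Serpina1c, Ass1 and Tat, were called lower in FPC-GFP, with a median log2 fold change of -0.44 over the list against 0.01 over all genes, while Alb (-0.15, SE 0.15) and Apoa1 (-0.10, SE 0.18) were not called. All 8 macrophage markers were called higher by edgeR and 7 of them by DESeq2, at a median of 1.48. Of the 12 male-biased liver genes 5 were called lower (Cyp4a12b, Cyp7b1, Hsd3b5, Slco1a1 and Selenbp2), against 4 called by DESeq2, at a median of -0.98, and of the 9 female-biased genes that could be tested 1, Cyp2a4, was called higher, at a median of 0.62. Of the 5 cholangiocyte markers tested 0 were called by edgeR or DESeq2 and 1 had an unadjusted p under 0.05, Spp1, with an adjusted p of 0.00712 at a log2 fold change of 0.95 (SE 0.22). In FPC-LIPA against FPC-GFP 7 male-biased genes were called lower (Cyp4a12a, Cyp4a12b, Cyp2d9, Cyp7b1, Hsd3b5, Selenbp2 and Serpina1e) and 1, Mup20, was called higher, against 6 called in all by DESeq2, while 1 female-biased gene (Hao2) was called higher, 1 hepatocyte marker (Serpina1c) was called lower, and 2 macrophage markers (Adgre1 and Lyz2) were called higher. Without mice 36, 37 and 39 the calls were 3 male-biased genes lower (Cyp4a12a, Cyp4a12b and Cyp2d9) and 3 macrophage markers higher (Adgre1, Lyz2 and Cd5l), and Mup20, Hao2 and Serpina1c were not called. The part of these shifts in the levels of the 4 genes was not tested.

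Over all 18 livers, the genes whose log2 CPM ran most like each member, among 12736 genes with a mean of at least 1 CPM, were described by Pearson's r with no test, since the points share the 3 groups. For Srrm4os they were Gm13522, an antisense RNA (r = 0.94), Cela1, an elastase (0.92), and Gm48633 (0.91), and Cela1 averaged 48.5 CPM in CON-GFP, 12.9 in FPC-GFP and 40.6 in FPC-LIPA. These were likewise low in FPC-GFP and higher in FPC-LIPA. For Pla1a they were Ttc39c (0.95), Car1, a carbonic anhydrase (0.94), and Mat1a, the liver enzyme that makes S-adenosylmethionine (0.94), which averaged 3887, 2180 and 1605 CPM in CON-GFP, FPC-GFP and FPC-LIPA. For Gm10804 they were Dsg1c, a desmoglein (0.94), Cth, which makes cysteine (0.90), and Zap70, a kinase of lymphocyte receptors (0.88). For Clec2h they were Ap3m1, an adaptor of vesicle transport (0.87), Apol7a (0.87) and Gm3734 (0.87). Of these 12 genes, none was named for more than 1 member.

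Within the CON-GFP livers, where the diet plays no part, the 4 genes showed no detectable relation to each other. Over 6 pairs, Pearson's r of log2 CPM ran from -0.41 (Srrm4os and Pla1a) to 0.64 (Clec2h and Gm10804), and the exact permutation p after Benjamini-Hochberg adjustment was 0.978 for r and 1.0 for Spearman's rho in all pairs (n = 6, two-sided). With scaling by library size alone, r for Srrm4os and Pla1a was -0.93 (exact permutation p = 0.0194, adjusted 0.117) and Spearman's rho -0.89 (adjusted exact p = 0.2), so this pair depends on the scaling. Spearman's rho for Clec2h and Gm10804 was -0.03, and r was -0.20 without the 2 livers farthest from the Clec2h median. That pair rested on mouse 3, the lowest liver for both genes at 2.46 and 1.49 CPM, since r was -0.40 without it.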

How the data were processed

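The deposited values are raw read counts per gene. The authors trimmed paired reads with Trimmomatic, mapped them with HISAT2 2.1.0 (per the labels) to GRCm38 (mm10) and counted them with Feature Counts from Subread; the annotation version and strand setting are not given in the sources used here. Of the columns, 18 were matched to groups by their labels, and 5 others were not used. Each comparison used its 12 libraries: filterByExpr, TMM scaling and the quasi-likelihood test of edgeR 4.0.16 in R 4.3.3, with Benjamini-Hochberg adjustment over all genes tested. A gene that failed the filter took its value from one fit of all 18 libraries. SE is the log2 fold change over the square root of F. CPM was scaled by TMM over 18 libraries, log2 CPM used a prior count of 2, and RPKM divided CPM by exon length from GENCODE M21, in which 55141 genes were found.

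The members and lists were chosen with earlier results of these data known. Beside the members, the text names, of each list, the 2 genes highest in CPM and the genes called (not all of these are printed), the neighbours described, and the 3 genes most like each member. Alternatives were DESeq2 size factors, library size alone, the DESeq2 1.42.0 Wald test, no filter, all libraries in one fit, sample sheet numbers 55 to 68, and each library left out. The subset under 3% ribosomal protein reads was added after seeing the data. The test was also run on simulated counts drawn from the means and dispersions of the FPC-GFP and FPC-LIPA libraries.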

Additional observations from a re-analysis of the deposited data

How the results depend on the processing

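Every fall of the 4 genes in FPC-GFP against CON-GFP kept its direction under all alternatives, and leaving out 1 library gave log2 fold changes of -5.00 to -4.33 for Clec2h, -5.06 to -4.55 for Gm10804, -3.41 to -3.05 for Srrm4os and -1.50 to -1.33 for Pla1a. The genes were picked from this contrast and the groups did not overlap, so a kept direction adds no support. In FPC-LIPA against FPC-GFP, Srrm4os was called in each leave-one-out fit (1.85 to 2.57, adjusted p 0.00518 to 0.0457) but not with sample sheet numbers 55 to 68 (1.77) or under 3% ribosomal protein reads (1.01). Leaving out 1 library gave 0.59 to 1.14 for Gm10804, -0.50 to -0.30 for Pla1a, and -0.13 (without FPC-LIPA 39) to 1.13 for Clec2h, which also turned to -1.24 under 3% ribosomal protein reads. Clec2h and Gm10804 had no value in fits of 12 libraries with the filter. Genes called there numbered 1671, and 1016 with library size alone, 96 with sheet numbers 55 to 68, 116 under 3% ribosomal protein reads and, with 1 library left out, 856 (no mouse 36) to 2612 (no mouse 33), and the cause was not tested. With library size alone, diet calls were 1054 higher and 225 lower, against 681 and 349 with TMM, and the median log2 fold change of all genes was 0.21 against 0.01. In FPC-LIPA against CON-GFP, sheet numbers 55 to 68 gave 1107 called genes against 2176. No paired analysis was possible because the groups share no mouse numbers. At 0 to 32 reads per FPC library, differences in Clec2h and Gm10804 between the FPC groups were at the limit of the depth.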
